A study of Mus musculus with 12 samples.

Results

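Rsad2 (viperin), Cmpk2, Samhd1, Ch25h, Ifitm1, Ifitm2, Ifitm3 and Bst2 (tetherin) are 8 mouse genes whose products restrict viruses at genome copying, nucleotide supply, membrane entry or particle release. They were taken as the probes whose RefSeq accession in the scanner files belongs to 1 of these symbols, whatever their values. This gave 10 of 55681 probes and 8 of the 15445 genes tested, since Cmpk2 and Samhd1 had a second probe each. All 8 genes passed the filter on dim probes. In at least 3 of the 4 groups the brightest probe of each gene exceeded background on every array. Each of 4 groups had 3 Agilent single-colour arrays, 12 in all, with RNA from cultured mouse embryonic fibroblasts. Fibroblasts are the cells that build connective tissue. The groups were GADD34ΔC/ΔC cells given poly(I:C), wild-type cells given poly(I:C), untreated GADD34ΔC/ΔC cells and untreated wild-type cells. GADD34ΔC/ΔC, written ΔC here, is an allele of Ppp1r15a, whose product GADD34 brings a phosphatase to the translation factor eIF2α. The labels name the allele without describing what it removes, and they give neither the age of the embryos nor the number of lines. High molecular weight poly(I:C), which mimics the double-stranded RNA of viruses, was delivered with a lipid reagent at 2.5 µg/ml for 6 h. The labels list no sample given the lipid alone, so poly(I:C) and transfection cannot be told apart. RNA was taken from the supernatant of a detergent lysate. The sample titles number the arrays of each group 1 to 3, and the series text names separate experiments. A number shared between groups was read here as the same experiment. In these bulk samples fewer responding cells and less RNA per cell cannot be told apart.

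These genes belong to the interferon-stimulated genes: cells that sense double-stranded RNA make interferon beta, which acts through its receptor on genes whose promoters carry an interferon-stimulated response element. Viperin is an iron-sulfur enzyme that turns CTP into a chain-terminating nucleotide, Cmpk2 is a nucleotide kinase encoded beside it, and Samhd1 degrades deoxynucleotides. Ch25h oxidises cholesterol to a form that hinders membrane fusion, the Ifitm proteins hinder fusion from within cell-surface and endosomal membranes, and Bst2 holds budding particles on the cell surface.

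RefSeq promoter windows (mouse build GRCm38.p6, 250 bases before to 50 bases after each start) were found for all 8 genes. They were searched on both strands for the core of the interferon-stimulated response element, GAAANNGAAA (TTTCNNTTTC on the other strand), which 1131 of 32851 windows held (3.44%). Of the 8 genes, Rsad2, Ifitm2, Ifitm3 and Bst2 held it, while it was not in the windows of Cmpk2, Samhd1, Ifitm1 and Ch25h. Stretches of 200 bases, from position -170 to position 30 from the start, are shown for the 4 genes with a match and for Cmpk2, the neighbour of Rsad2 without one. They lie at chr12:26456423-26456622 (Rsad2, minus strand), chr12:26469045-26469244 (Cmpk2, plus strand), chr7:140955932-140956131 (Ifitm2, minus strand), chr7:141010715-141010914 (Ifitm3, minus strand) and chr8:71537443-71537642 (Bst2, minus strand). Each is written 5′ to 3′ on the strand of its gene, with the matches in capitals.
Rsad2: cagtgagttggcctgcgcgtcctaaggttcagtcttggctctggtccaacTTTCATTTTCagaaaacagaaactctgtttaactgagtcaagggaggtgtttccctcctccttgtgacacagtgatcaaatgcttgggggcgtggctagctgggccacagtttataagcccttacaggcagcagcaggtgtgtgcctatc
Cmpk2: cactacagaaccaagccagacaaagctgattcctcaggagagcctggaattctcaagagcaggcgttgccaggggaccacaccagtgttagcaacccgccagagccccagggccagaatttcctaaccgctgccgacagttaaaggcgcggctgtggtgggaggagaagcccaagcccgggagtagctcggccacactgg
Ifitm2: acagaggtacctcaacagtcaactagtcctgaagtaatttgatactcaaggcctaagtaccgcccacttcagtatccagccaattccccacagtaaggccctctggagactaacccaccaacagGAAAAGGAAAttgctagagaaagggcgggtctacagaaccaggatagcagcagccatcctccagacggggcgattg
Ifitm3: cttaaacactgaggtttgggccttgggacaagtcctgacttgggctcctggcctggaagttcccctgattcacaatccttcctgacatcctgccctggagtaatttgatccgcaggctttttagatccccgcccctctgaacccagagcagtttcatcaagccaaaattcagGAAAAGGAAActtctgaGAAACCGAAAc
Bst2: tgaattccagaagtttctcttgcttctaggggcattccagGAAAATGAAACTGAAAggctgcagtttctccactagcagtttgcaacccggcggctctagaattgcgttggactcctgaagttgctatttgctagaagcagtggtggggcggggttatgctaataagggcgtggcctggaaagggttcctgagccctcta
The match of Rsad2 lay on the other strand at positions -120 to -111, and that of Ifitm2 at -46 to -37. Ifitm3 held matches at 3 to 12 and 20 to 29, after its start, and Bst2 held a pair that overlap, at -130 to -121 and -124 to -115. The gamma-activated site, TTCNNNGAA, which reads the same on both strands and was found in 8.3% of the windows, was present in Samhd1 at -235 to -227. It was also present in Ifitm3 and Bst2, where it overlapped a match to the first motif. These matches are descriptions of letters and show no binding.

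**Figure D1:**
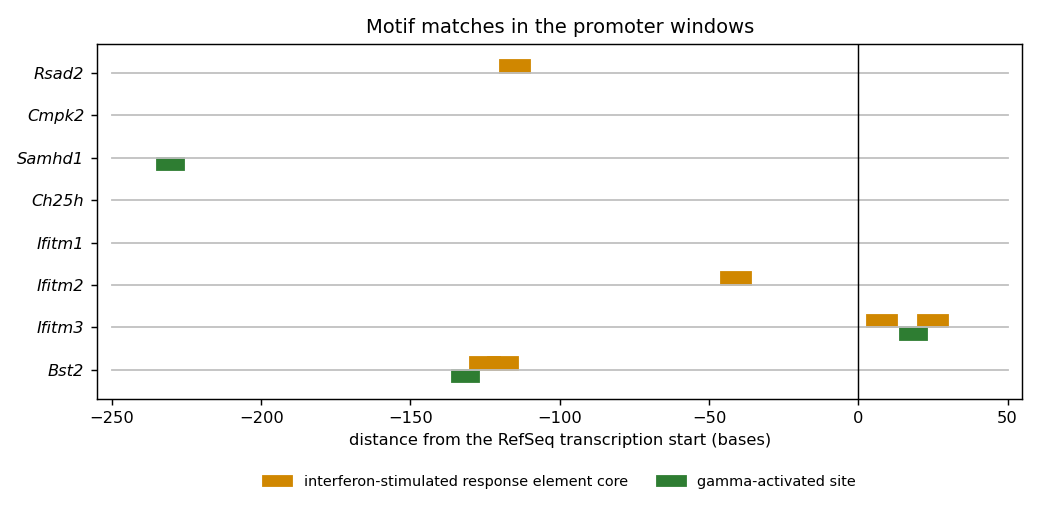
Positions of motif matches in the promoter windows of the 8 genes. The x axis is the distance from the RefSeq start in bases, and boxes are matches to the interferon-stimulated response element core (above each line) and to the gamma-activated site (below it). Rsad2 and Bst2 have their matches between positions -136 and -111, and those of Ifitm3 lie after it.

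Between 60.4 and 67.3% of probes were well above background on each array, and no spot was saturated. Ppp1r15a, the targeted gene, was well above background on 1 of 3 ΔC arrays with poly(I:C) and 0 of 3 without, against all 6 wild-type arrays, and in untreated cells it was at least 485.3-fold lower in ΔC cells (limma, adjusted p = 6.1e-05). Where the probe lies relative to the deletion is not given. The arrays lay on 5 slides scanned on 3 days. Of 12 fibroblast markers, 11 were detected on every array of at least 1 group, and Lum was well above background on none. Levels are given as normalized log2 intensity, the log2 of the processed intensity minus the 75th percentile of its array, so that 0 is that percentile. Apart from the summed levels of marker lists, they are compared within a probe only. A gene was called when its limma p-value, adjusted by Benjamini-Hochberg over all genes tested, was under 0.05.

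**Figure D2:**
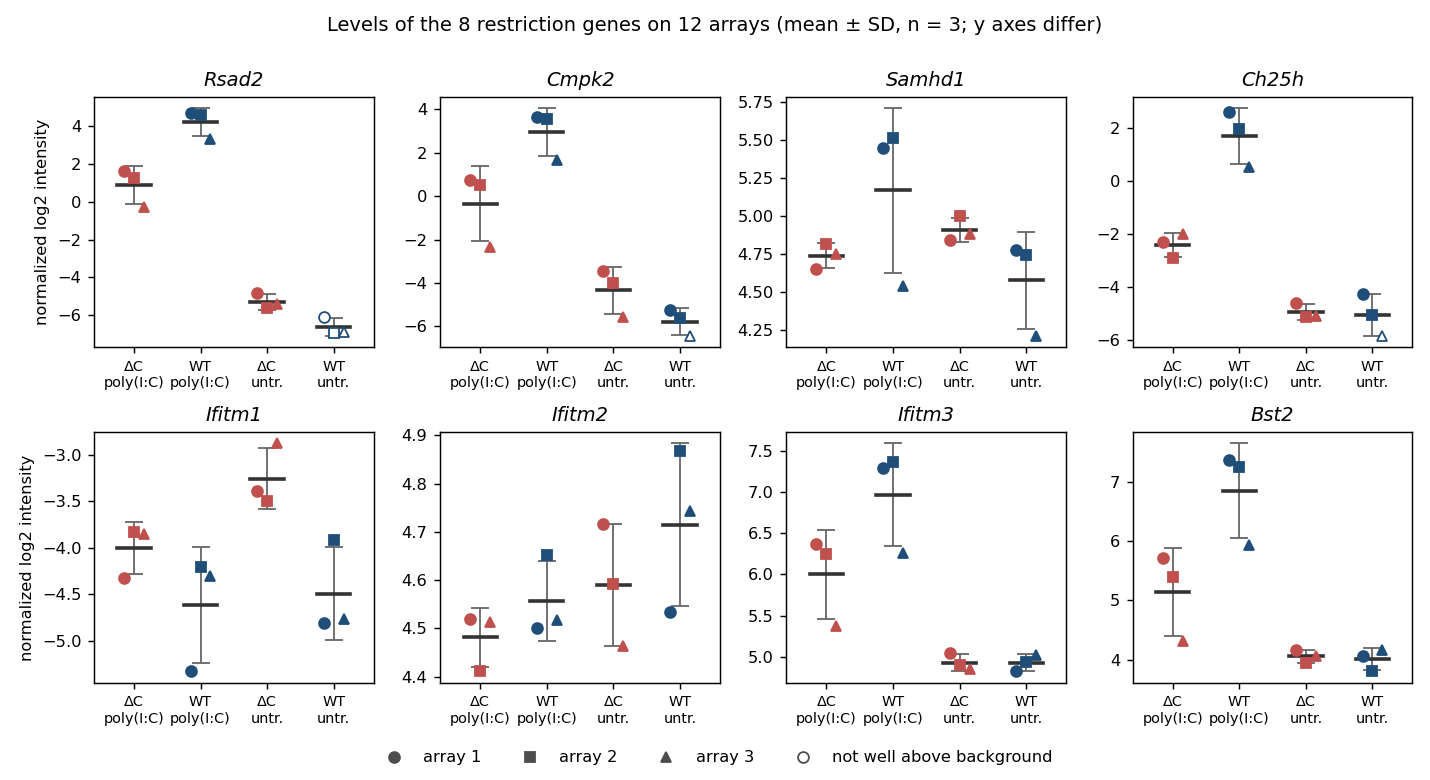
Normalized log2 intensity (y axis, a log2 scale that differs between panels) of the 8 genes in ΔC and wild-type (WT) cells with poly(I:C) and untreated. Points are arrays 1 to 3, open where the probe was not well above background, and bars are mean ± SD (n = 3). Rsad2, Cmpk2, Ch25h and Bst2 stand lower on all 3 ΔC arrays with poly(I:C) than on all 3 wild-type arrays with poly(I:C).

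In wild-type cells 5 of the 8 genes rose with poly(I:C): Rsad2, Cmpk2, Ch25h, Bst2 and Ifitm3. Of all genes tested, 5.24% rose, 1.53% fell and 6.77% changed in either direction. The median log2 change of the 8 was 2.44, against -0.14 over all genes. In ΔC cells 2 of the 8, Rsad2 and Ch25h, rose, where 1.82% of all genes rose, 0.0194% fell and 1.84% changed in either direction, and the medians were 1.08 and -0.05. Among untreated cells 1 of the 8, Ifitm1, was higher in ΔC than in wild-type cells (10.9% of all genes were higher there, 10.2% lower and 21.2% either). After poly(I:C) 4 of the 8, Rsad2, Cmpk2, Ch25h and Bst2, were lower in ΔC than in wild-type cells, where 11.9% of all genes were higher, 9.04% lower and 20.9% either, with a median of -1.34 against 0.01 over all genes. By log2 change Cmpk2, Ch25h, Bst2 and Ifitm3 ranked 38, 148, 553 and 561 from the top of the 15445 genes in ΔC cells, and 6, 28, 230 and 369 in wild-type cells. Treated and untreated arrays did not overlap for 7 of the 8 genes in ΔC cells (17.7% of all genes) and 5 of 8 in wild-type cells (30.6%). In both genotypes these included Rsad2, Cmpk2, Ch25h, Bst2 and Ifitm3, all higher with poly(I:C). The others in ΔC cells were Samhd1 and Ifitm1, which were lower with poly(I:C) and not called. ΔC and wild-type arrays did not overlap for 4 of 8 with poly(I:C) (40.6%) and 3 of 8, Rsad2, Samhd1 and Ifitm1, without it (37.2%).

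**Figure D3:**
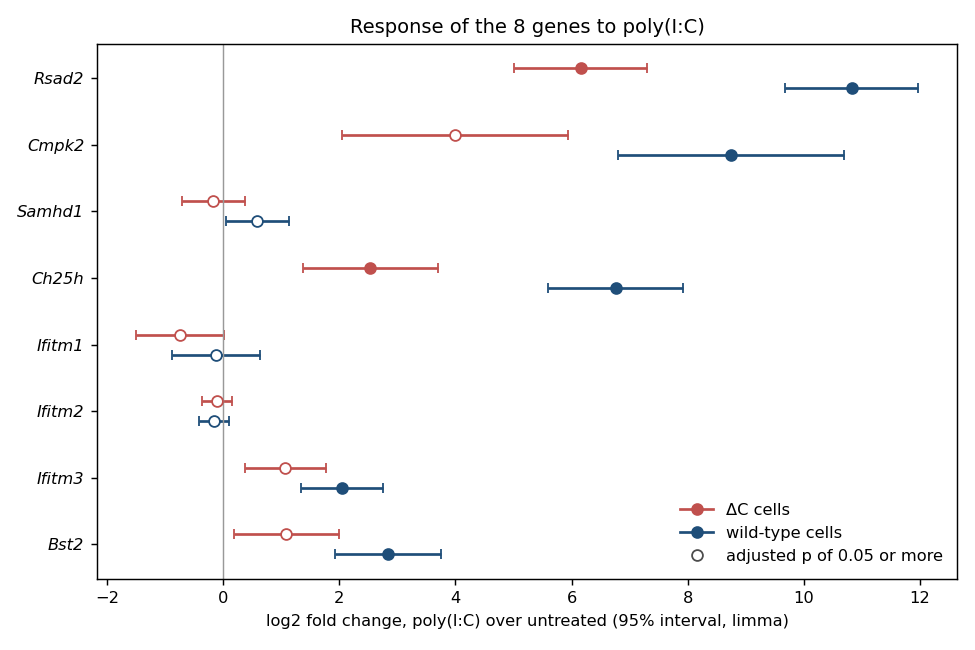
Log2 fold change of poly(I:C) over untreated cells (x axis) for each gene in ΔC and wild-type cells, with 95% intervals from limma. Filled points had an adjusted p under 0.05. For Rsad2, Cmpk2, Ch25h, Ifitm3 and Bst2 the wild-type point lies to the right of the ΔC point, and the wild-type value of Rsad2 rests on untreated readings at background.

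Rsad2 had the largest response of the 8 genes in both genotypes. Its level on arrays 1 to 3 was 1.61, 1.27 and -0.28 in ΔC cells with poly(I:C), against 4.68, 4.57 and 3.33 in wild-type cells with poly(I:C). Untreated cells had -4.80, -5.64 and -5.43 in ΔC and -6.10, -6.92 and -6.87 in wild type. No 2 groups overlapped, and the untreated wild-type arrays were the only ones not well above background. The group means were 0.87 ± 1.01 in ΔC and 4.19 ± 0.75 in wild type with poly(I:C), and -5.29 ± 0.43 in ΔC and -6.63 ± 0.46 in wild type untreated (SD, n = 3 each). From highest to lowest the order was thus wild type with poly(I:C), ΔC with poly(I:C), untreated ΔC and untreated wild type. With poly(I:C), Rsad2 rose 71.2-fold in ΔC cells (log2 6.15 ± 0.52, SE; limma adjusted p = 0.000163). It rose at least 1091.5-fold in wild-type cells (limma adjusted p = 3.04e-06), a bound set by the lowest signals well above background on the untreated arrays. Under 26 alternatives of processing or samples Rsad2 rose by log2 7.29 to 11.26 in wild-type cells. Among treated cells it was 10.05-fold lower in ΔC (log2 -3.33 ± 0.52, limma adjusted p = 0.00173), and lower on the ΔC array of each number, by -3.07, -3.30 and -3.61.

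Untreated ΔC cells had a higher Rsad2 signal than untreated wild-type cells on every array, at least 1.53-fold on average. Without the replicate number in the model the difference missed the threshold (log2 1.34 ± 0.52, limma adjusted p = 0.0920), and with that number as a block it passed (adjusted p = 0.0197). Leaving out ΔC poly(I:C) array 3, which belongs to neither group, gave an adjusted p of 0.0360. The difference by number was 1.30, 1.28 and 1.45. With normexp background correction it was -0.03, and the wild-type readings lay at background.

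Cmpk2 followed the same order of groups as Rsad2 on both of its probes. On the brighter probe it had 0.76, 0.53 and -2.35 in ΔC cells with poly(I:C), against 3.66, 3.54 and 1.69 in wild-type cells with poly(I:C). Untreated levels were -3.46, -4.01 and -5.57 in ΔC and -5.27, -5.63 and -6.45 in wild type, where array 3 was not well above background. Array 3 was the lowest of its group in all 4 groups, and only the untreated groups overlapped. The means were -0.36 ± 1.74 in ΔC and 2.96 ± 1.10 in wild type with poly(I:C), and -4.34 ± 1.10 in ΔC and -5.78 ± 0.60 in wild type untreated (SD, n = 3 each).

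The log2 change of Cmpk2 with poly(I:C) was 3.99 ± 0.88 in ΔC cells (limma adjusted p = 0.0531, and 0.000752 with the replicate block) and 8.75 ± 0.88 in wild-type cells (adjusted p = 0.000248). The ΔC value passed the test without wild-type poly(I:C) array 3 (adjusted p = 0.0399) or ΔC poly(I:C) array 3 (log2 4.99, adjusted p = 0.00599). After poly(I:C) Cmpk2 was 9.98-fold lower in ΔC than in wild-type cells (log2 -3.32 ± 0.88, limma adjusted p = 0.0233), which did not hold without wild-type poly(I:C) array 1 (adjusted p = 0.0894) or array 2 (0.0873), or with only the treated groups in the fit (0.0681). The second probe gave log2 changes of 3.95 in ΔC and 8.28 in wild-type cells and a difference of -3.05 between treated genotypes. It was well above background on 2 of 3 untreated ΔC arrays and on 0 of 3 untreated wild-type arrays. The size of its wild-type change therefore rests on readings at background. Untreated ΔC cells had a log2 difference of 1.44 ± 0.88 from wild type on the brighter probe, with an adjusted p of 0.272 without and 0.0182 with the replicate block.

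Samhd1, the deoxynucleotide hydrolase, changed far less, and its probes, which carry different RefSeq accessions, differed in their calls. On the brighter probe it had 4.65, 4.81 and 4.75 in ΔC cells with poly(I:C), against 5.45, 5.51 and 4.54 in wild-type cells with poly(I:C). Untreated cells had 4.84, 5.00 and 4.88 in ΔC and 4.78, 4.74 and 4.21 in wild type. Wild-type array 3 was below arrays 1 and 2 with and without poly(I:C), and the ΔC arrays lay close together. The group means were 4.74 ± 0.08 in ΔC and 5.17 ± 0.54 in wild type with poly(I:C), and 4.91 ± 0.08 in ΔC and 4.58 ± 0.32 in wild type untreated (SD, n = 3 each). Wild type with poly(I:C) was highest, then untreated ΔC, ΔC with poly(I:C) and untreated wild type, and of neighbours in this order only the 2 ΔC groups did not overlap. The response was -0.17 ± 0.25 in ΔC and 0.59 ± 0.25 in wild-type cells, neither past the test (limma adjusted p = 0.848 and 0.161). When wild-type poly(I:C) array 3 was left out, the wild-type response was 0.90 (adjusted p = 0.00999) and the difference between treated genotypes was -0.74 (adjusted p = 0.0141), against -0.43 (0.250) with all arrays. On the dimmer probe the response was 0.06 ± 0.29 in ΔC cells and 1.26 ± 0.29 in wild-type cells (limma adjusted p = 0.977 and 0.0390 over 35199 probes), so Samhd1 rose in wild-type cells by this probe. Untreated ΔC and wild-type cells differed by 0.33 ± 0.25 on the brighter probe (adjusted p = 0.367) without overlap of their arrays.

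Ch25h, the cholesterol 25-hydroxylase gene, rose in both genotypes and showed the largest genotype difference of the 8 after poly(I:C). It had -2.31, -2.92 and -2.02 in ΔC cells with poly(I:C), against 2.59, 1.95 and 0.52 in wild-type cells with poly(I:C). Untreated levels were -4.60, -5.15 and -5.10 in ΔC and -4.29, -5.08 and -5.85 in wild type, where array 3 was not well above background. The treated groups overlapped neither each other nor the untreated groups, and the untreated genotypes overlapped. Means were -2.42 ± 0.46 in ΔC and 1.69 ± 1.06 in wild type with poly(I:C), and -4.95 ± 0.30 in ΔC and -5.08 ± 0.78 in wild type untreated (SD, n = 3 each), the same order as for Rsad2. Ch25h rose 5.78-fold in ΔC cells (log2 2.53 ± 0.52, limma adjusted p = 0.0380) and by log2 6.76 ± 0.52 in wild-type cells (adjusted p = 4.85e-05). The ΔC call was lost without any 1 of the 6 ΔC arrays or without wild-type array 2, untreated or treated (adjusted p of 0.0640 to 0.162). It was also lost with the slide (log2 2.30, adjusted p = 0.379) or the scan day (2.25, 0.244) as a block, with median scaling (2.39, 0.0578), quantile normalization (2.46, 0.0607) or no filter on dim probes (0.0562), and with normexp, where the change was 1.24 (0.138). In all, the ΔC response of Ch25h passed under 10 of 26 alternatives and was positive under all 26. Treated ΔC cells had 17.2-fold less Ch25h than treated wild-type cells (log2 -4.10 ± 0.52, limma adjusted p = 0.000580). By number the difference was -4.90, -4.87 and -2.54. Untreated cells differed by 0.13 ± 0.52 (adjusted p = 0.884).

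Of the Ifitm genes, which stand together on chromosome 7, Ifitm3 rose in wild-type cells and Ifitm1 and Ifitm2 did not pass the test in either genotype. The Ifitm3 probe was printed on each array many times, and its 8 to 10 usable spots had an SD of 0.02 to 0.07 within an array. Ifitm3 had 6.37, 6.25 and 5.37 in ΔC cells with poly(I:C), against 7.29, 7.37 and 6.26 in wild-type cells with poly(I:C). Without treatment it had 5.04, 4.90 and 4.85 in ΔC and 4.82, 4.94 and 5.02 in wild type. Array 3 was the lowest treated array in both genotypes, the treated genotypes overlapped through wild-type array 3, and every treated array lay above every untreated one. The means were 6.00 ± 0.55 in ΔC and 6.97 ± 0.62 in wild type with poly(I:C), and 4.93 ± 0.10 in untreated cells of each genotype (SD, n = 3 each). The response was 1.07 ± 0.31 in ΔC cells (2.10-fold, limma adjusted p = 0.191) and 2.04 ± 0.31 in wild-type cells (4.13-fold, adjusted p = 0.00358). Without ΔC poly(I:C) array 3 the ΔC response was 1.38 (adjusted p = 0.0430). With the slide as a block the wild-type response was 1.90, with an adjusted p of 0.0687.

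After poly(I:C) Ifitm3 differed between ΔC and wild-type cells by -0.97 ± 0.31 (limma adjusted p = 0.0524). The call depended on the samples, the fit and the processing. The limma adjusted p was 0.0269 with the replicate block, 0.0356 with a trended robust prior and 0.0456 with normexp. Leaving out wild-type poly(I:C) array 3 gave a difference of -1.33 (adjusted p = 0.00598). In all, the difference passed under 6 of 26 alternatives. The 3 pairs of arrays differed by -0.92, -1.12 and -0.88, all lower in ΔC. Untreated cells differed by 0.00 ± 0.31 (adjusted p = 0.999).

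Ifitm2 stayed within a narrow range. Its levels were 4.41 to 4.52 in ΔC cells with poly(I:C), 4.50 to 4.65 in wild-type cells with poly(I:C), 4.46 to 4.72 in untreated ΔC and 4.53 to 4.87 in untreated wild-type cells. All 4 groups overlapped their neighbours in the order of means. The response was -0.11 (95% interval -0.37 to 0.15) in ΔC and -0.16 (-0.42 to 0.11) in wild-type cells. Between genotypes it differed by -0.08 ± 0.12 with poly(I:C) and -0.12 ± 0.12 without (limma adjusted p = 0.700 and 0.487). Its promoter window, shown above, holds the response element core, as does that of Ifitm3.

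Ifitm1 was the only 1 of the 8 genes with its highest level in untreated ΔC cells. It had -4.33, -3.83 and -3.85 in ΔC cells with poly(I:C), against -5.33, -4.20 and -4.31 in wild-type cells with poly(I:C). Untreated cells had -3.39, -3.50 and -2.88 in ΔC, against -4.80, -3.91 and -4.76 in wild type. The untreated ΔC arrays lay above all 9 others. The means were -4.00 ± 0.28 in ΔC and -4.61 ± 0.62 in wild type with poly(I:C), and -3.26 ± 0.33 in ΔC and -4.49 ± 0.50 in wild type untreated (SD, n = 3 each). Below untreated ΔC came ΔC with poly(I:C), untreated wild type and wild type with poly(I:C), each overlapping the next. In untreated cells Ifitm1 was 2.36-fold higher in ΔC than in wild type (log2 1.24 ± 0.34, limma adjusted p = 0.0277). On the slide that held both genotypes untreated the difference was 0.42, and on the scan day that held both it was 0.47. With the slide or the scan day as a block the adjusted p was 0.150 and 0.193, without the arrays numbered 3 it was 0.160, and with normexp the difference was 0.40 (0.0518). Leaving out wild-type untreated array 1 or 3, or any 1 of the untreated ΔC arrays, gave an adjusted p of 0.0543 to 0.0975. The change with poly(I:C) was -0.75 ± 0.34 in ΔC and -0.12 ± 0.34 in wild-type cells (limma adjusted p = 0.463 and 0.843). Treated genotypes differed by 0.61 ± 0.34 (adjusted p = 0.238). Probe sequences were not used here, so signal shared among these similar genes was not tested.

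Bst2, the tether of budding particles, rose in wild-type cells and was lower in ΔC cells after poly(I:C). It had 5.71, 5.40 and 4.31 in ΔC cells with poly(I:C), against 7.36, 7.26 and 5.93 in wild-type cells with poly(I:C). Untreated levels were 4.16, 3.94 and 4.06 in ΔC and 4.07, 3.80 and 4.16 in wild type. The highest treated ΔC array was below the lowest treated wild-type array, and ΔC poly(I:C) array 3 lay only just above the untreated ΔC arrays. Its means were 5.14 ± 0.74 in ΔC and 6.85 ± 0.80 in wild type with poly(I:C), and 4.05 ± 0.11 in ΔC and 4.01 ± 0.19 in wild type untreated (SD, n = 3 each), and the untreated genotypes overlapped. The response was 1.09 ± 0.41 in ΔC cells (limma adjusted p = 0.376) and 2.84 ± 0.41 in wild-type cells (7.15-fold, adjusted p = 0.00239). With the slide as a block the wild-type response was 2.68, with an adjusted p of 0.0712. After poly(I:C) Bst2 was 3.27-fold lower in ΔC (log2 -1.71 ± 0.41, limma adjusted p = 0.0152). The call ended without wild-type poly(I:C) array 1 or 2 (adjusted p = 0.0668 and 0.0660), with a fit of the treated groups alone (0.0743), and when the slide (log2 -1.96, adjusted p = 0.0729) or scan day (-1.76, 0.0557) was blocked on. The numbered pairs differed by -1.65, -1.86 and -1.62. Untreated cells differed by 0.04 ± 0.41 (adjusted p = 0.949).

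The 5 genes that rose in wild-type cells had smaller responses in ΔC cells in each of the 3 experiments. Subtracting the untreated array from the treated array of the same number gave 6.41, 6.91 and 5.14 for Rsad2 in ΔC cells, against 10.78, 11.49 and 10.21 in wild-type cells. For Cmpk2 it gave 4.22, 4.53 and 3.22 in ΔC cells, against 8.93, 9.17 and 8.14 in wild-type cells. The Ch25h values were 2.29, 2.23 and 3.08 in ΔC cells, against 6.88, 7.03 and 6.38 in wild-type cells. In these 3 genes every ΔC response was below every wild-type response. Ifitm3 had 1.33, 1.36 and 0.53 in ΔC cells, against 2.47, 2.43 and 1.24 in wild-type cells. Bst2 had 1.55, 1.46 and 0.25 in ΔC cells, against 3.29, 3.45 and 1.77 in wild-type cells. For Ifitm3 the wild-type response in experiment 3 lay below the ΔC responses in experiments 1 and 2, so the genotypes were separate within numbers only. The Bst2 responses of the genotypes did not overlap. Samhd1 and Ifitm1, not called in either response on their brightest probe, also had lower values in ΔC cells in each experiment. Samhd1 had -0.19, -0.18 and -0.13 in ΔC cells, against 0.67, 0.77 and 0.33 in wild-type cells. Ifitm1 had -0.94, -0.33 and -0.97 in ΔC cells, against -0.52, -0.29 and 0.45 in wild-type cells. Ifitm2 was lower in ΔC cells in experiment 1 only. The share of all genes separated in these ways was not computed, so the patterns cannot be set against it. The first 5 genes were chosen by their rise in wild-type cells, a choice that favours larger wild-type values.

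**Figure D4:**
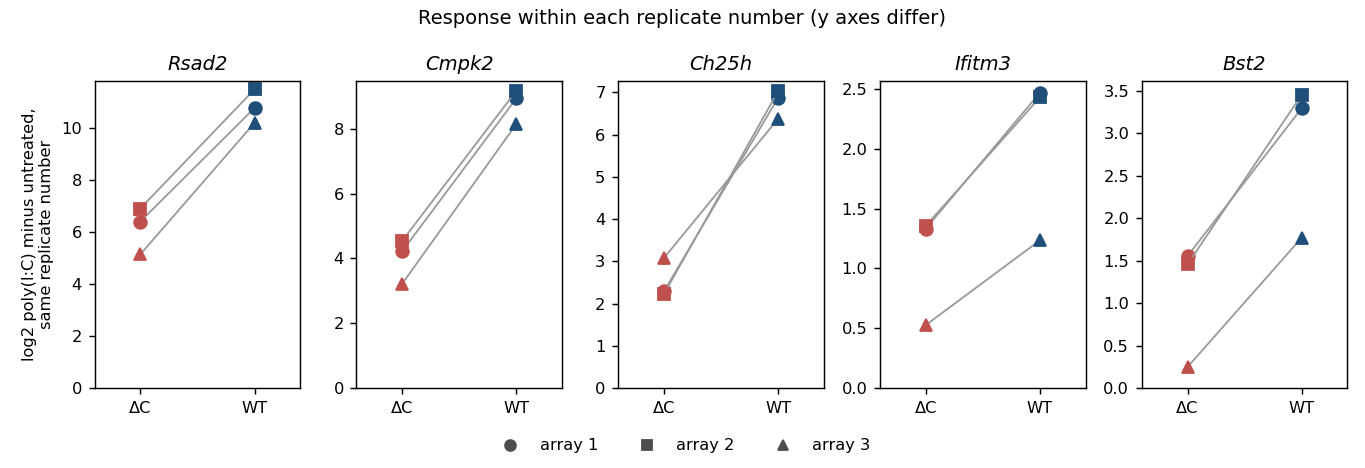
Log2 level with poly(I:C) minus the untreated level of the same experiment number (y axis, scale differs between panels) in ΔC and wild-type (WT) cells. Only the 5 genes called in the wild-type response are drawn. Lines join arrays of the same number. Every line rises toward wild type, and experiment 3 is the lowest in each panel except for Ch25h in ΔC cells.

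The difference between the responses was tested as an interaction, and 0 of the 8 genes passed with limma over all 15445 genes, of which 0.0194% passed (0.00647% above 0 and 0.0129% below). The difference, ΔC minus wild type, was -4.67 ± 0.73 for Rsad2 (adjusted p = 0.184), -4.76 ± 1.24 for Cmpk2 (0.397), -4.23 ± 0.74 for Ch25h (0.213) and -1.75 ± 0.58 for Bst2 (0.635). These 4 genes had an unadjusted p under 0.05, while Ifitm3 (-0.97 ± 0.45), Samhd1 (-0.76 ± 0.35), Ifitm1 (-0.63 ± 0.48) and Ifitm2 (0.05 ± 0.17) did not. These values are of the brightest probe of each gene. On the dimmer Samhd1 probe the difference was -1.20 ± 0.41 (limma adjusted p = 0.706 over 35199 probes). Of all 15445 genes, 836 had an unadjusted p under 0.05 for the difference. With the wild-type untreated level of Rsad2 raised to the detection limit, its difference was -3.94, a response at least 15.3-fold smaller in ΔC cells under the main processing. Under 25 alternatives of processing or samples the Rsad2 difference was -8.04 to -3.17. Blocking on the replicate number, the differences of Rsad2, Cmpk2 and Ch25h passed (adjusted p = 0.0136, 0.0140 and 0.0411). Leaving out wild-type poly(I:C) array 3, the differences of Rsad2 (-5.10, adjusted p = 0.00896) and Ch25h (-4.81, 0.00520) passed.

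Array 3 was the lowest treated wild-type array for all 5 genes that rose there, and the lowest treated ΔC array for all of these but Ch25h. Ifnb1, the gene for interferon beta, was 5.18, 4.99 and 5.28 in ΔC cells with poly(I:C), against 6.78, 6.58 and 5.58 in wild-type cells with poly(I:C). It was lowest on array 3 in wild type and on array 2 in ΔC, and the genotypes did not overlap. Between treated genotypes it differed by -1.17 ± 0.67, with a limma adjusted p of 0.251. The part of interferon in the values of the 8 genes was not tested.

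Values within a slide or a scan day kept the direction of the pooled ones for the genes called in the responses and between treated genotypes. On the slide that held both treatments of wild-type cells the response was 11.49 for Rsad2, 9.17 for Cmpk2, 7.03 for Ch25h, 3.45 for Bst2 and 2.43 for Ifitm3. On the slide with both treatments of ΔC cells it was 6.41, 4.22, 2.29, 1.55 and 1.33 for the same genes. That slide also held both treated genotypes, which differed by -3.07 for Rsad2, -2.90 for Cmpk2, -4.90 for Ch25h and -1.65 for Bst2. Within the scan day that held all 4 groups the same differences were -3.02, -2.84, -4.58 and -1.60. Fits with the slide or the scan day as a block nevertheless ended the calls of Bst2 between treated genotypes, of Ch25h in ΔC cells and of Ifitm1 between untreated genotypes, and the slide block also those of Ifitm3 and Bst2 in wild-type cells, with the values given above.

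Marker levels also differed between genotypes. The summed level of the 12 fibroblast markers, in multiples of the 75th percentile, was 390 to 719 in ΔC cells with poly(I:C), against 860 to 1007 in wild-type cells with poly(I:C), and 392 to 726 in untreated ΔC, against 1058 to 1224 in untreated wild-type cells. The brightest probes weigh most in such sums, here S100a4, Vim and Col1a1, with log2 means of 8.83, 8.31 and 7.72 in untreated wild-type cells. Of the 11 tested, Col3a1, Vim and S100a4 were lower in ΔC cells with and without poly(I:C), and Pdgfrb without it, and 0 were called higher. The 7 not called in untreated cells ranged from -1.74 ± 0.60 (Col1a1) to 1.37 ± 1.36 (Thy1). Of all genes 11.9% were higher and 9.04% lower in ΔC with poly(I:C), and 10.9% and 10.2% without it. For 9 of 10 macrophage and leukocyte markers with a probe the sum was 10.8 to 13.2 in ΔC and 14.4 to 16.8 in wild-type cells with poly(I:C), and 10.0 to 13.0 in ΔC and 19.8 to 23.6 in wild-type cells without. Lyz2 was well above background on no array. Fcgr1, an immunoglobulin receptor, rose with poly(I:C) at least 14.5-fold in ΔC and at least 12.8-fold in wild-type cells (limma adjusted p = 0.00505 and 0.00270), while Mrc1 with poly(I:C) and Csf1r without it were the called markers with the largest falls in ΔC. The epithelial genes Cdh1 and Epcam were well above background in ΔC cells and on no wild-type array, and higher in ΔC with and without poly(I:C). Krt8 was lower in untreated ΔC cells (-1.91 ± 0.43, limma adjusted p = 0.0118) and at -1.32 ± 0.43 with poly(I:C) (0.0552), and Krt18, Krt5 and Krt14 did not pass in either comparison. Sums over the 6 epithelial markers were 1.50 to 3.27 in ΔC and 0.692 to 4.03 in wild type with poly(I:C), and 1.81 to 3.78 in ΔC and 0.596 to 4.93 in wild type without. Of 5 endothelial markers, Cdh5, Emcn and Tek were well above background on no array. The part of cell composition in the values of the 8 genes was not tested.

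Genes of nucleotide supply, of iron-sulfur assembly and of oxysterol handling gave no call in the poly(I:C) response of either genotype, and some differed between genotypes. Of 18 genes of pyrimidine and deoxynucleotide supply, the pathway that viperin, Cmpk2 and Samhd1 act on, 0 changed in either response (limma, adjusted over all genes), with medians of -0.09 in ΔC and -0.16 in wild-type cells, against -0.05 and -0.14 over all genes. At an unadjusted limma p under 0.05 stood 0 of them in ΔC and 5 in wild-type cells, all 5 with negative changes. Of all 15445 genes, 1682 in ΔC and 4050 in wild-type cells stood there. Between treated genotypes 5 of the 18 were higher in ΔC (Dguok, Dtymk, Nme4, Rrm1 and Tk2) and 2 lower (Ctps2 and Rrm2), where 11.9% of all genes were higher and 9.04% lower, with Nme4, a mitochondrial nucleoside diphosphate kinase, at 1.99 ± 0.26 (adjusted p = 0.000726) and Ctps2, a CTP synthase, at -0.60 ± 0.18 (0.0437). Between untreated genotypes 2 were higher (Dtymk and Nme4) and 4 lower (Ctps2, Nme1, Nme2 and Rrm2), against 10.9% and 10.2% of all genes, with Nme4 at 1.73 ± 0.26 (adjusted p = 0.00154) and Ctps2 at -0.90 ± 0.18 (0.00725). Of 9 viperin partners and iron-sulfur assembly genes 0 changed in either response by the adjusted limma p. At an unadjusted p under 0.05 there were 1 in ΔC and 4 in wild-type cells, against the same 1682 and 4050 of all 15445 genes. Irak1, a kinase of Toll-like receptor signalling, was lower in ΔC with poly(I:C) (-0.96 ± 0.12, adjusted p = 0.000517) and without it (-1.22 ± 0.12, 0.000106), as was Ciao2a. Irak1 and Ciao2a were 2 of the 9 in each comparison, where 9.04% and 10.2% of all genes were lower, and 0 of the 9 were higher.

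Of 14 genes of oxysterol handling, which make, act on or answer to oxysterols such as the product of Ch25h, 0 changed in either response by the adjusted limma p. Their median log2 changes were -0.17 in ΔC and -0.35 in wild-type cells. At an unadjusted p under 0.05 there were 0 in ΔC and 3 in wild-type cells, against 1682 and 4050 of all 15445 genes. Some of them differed between genotypes. Abca1, a cholesterol exporter, was well above background on all ΔC arrays with poly(I:C) and on no wild-type array with poly(I:C), at least 3.68-fold higher (limma adjusted p = 0.00993), and without treatment its difference was 2.59 ± 0.66 (0.0206), with 1 of 3 wild-type arrays well above background. Cyp7b1, which hydroxylates oxysterols, was lower in ΔC, with a difference of -5.13 ± 1.23 with poly(I:C) (adjusted p = 0.0155) and -4.91 ± 1.23 without (0.0190), with 1 of 3 ΔC arrays well above background in each. In all, 2 of the 14 were higher (Abca1 and Soat1) and 3 lower (Cyp7b1, Hsd3b7 and Insig2) in ΔC with poly(I:C), against 11.9% and 9.04% of all genes. Without it Cyp27a1 was also higher, and the same 3 were lower (10.9% and 10.2% of all genes).

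Other Ifitm genes and Ifitm3 partners gave few calls. Ifitm6, next to the cluster, rose in wild-type cells (1.85 ± 0.38, limma adjusted p = 0.0178) and was at 0.75 ± 0.38 in ΔC cells (0.513), and it was lower in treated ΔC than in treated wild-type cells (-1.43 ± 0.38, 0.0237). Ifitm5, on the other side, had 0.06 in ΔC and 0.25 in wild-type cells, neither past the test. Of 4 Ifitm3 partners, Nedd4, the ubiquitin ligase that marks Ifitm3 for turnover, fell in wild-type cells (-0.43 ± 0.11, adjusted p = 0.0481), and Vapa, a membrane contact protein that binds Ifitm3, was lower in ΔC with poly(I:C) (-0.39 ± 0.11, 0.0298) and without it (-0.49 ± 0.11, 0.0107). Of all genes 5.24% rose and 1.53% fell in wild-type cells. Between genotypes 9.04% of all genes were lower in ΔC with poly(I:C) and 10.2% without it.

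Among 15 other restriction factors 0 rose in ΔC cells and 6 rose in wild-type cells (1.82% and 5.24% of all genes), the largest being Trim25, a ubiquitin ligase of RIG-I signalling (2.79 ± 0.39, limma adjusted p = 0.00208). At an unadjusted p under 0.05, 5 of the 15 had positive changes in ΔC cells, where 1682 of all 15445 genes passed in either direction. Between treated genotypes 6 of the 15 were lower in ΔC, where 9.04% of all genes were, led by Lgals9, which encodes galectin-9, at -2.69 ± 0.49 (adjusted p = 0.00408). Of 11 genes of interferon signalling 5 rose in ΔC and 6 in wild-type cells. The largest was Ifnb1, at log2 12.11 ± 0.67 in ΔC cells, where 1 of 3 untreated arrays was well above background (limma adjusted p = 1.3e-05), and at least 4744.5-fold in wild-type cells (adjusted p = 3e-06). Between treated genotypes 3 of the 11 were lower in ΔC (Ifna4, Irf1 and Irf9, against the same 9.04% of all genes), Ifna4 most (-2.15 ± 0.61, limma adjusted p = 0.0317).

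The genes around Rsad2 and Cmpk2 and around the Ifitm cluster were also read. Rsad2 and Cmpk2 are neighbours on chromosome 12 that run away from each other. Of the 3 genes on each side of the pair, Id2, Kidins220 and Sox11 were tested. Id2, an inhibitor of basic helix-loop-helix factors, fell in wild-type cells (-1.07 ± 0.21, limma adjusted p = 0.0155) and was at -0.49 ± 0.21 in ΔC cells (0.445), and the other two did not pass in either response (1.84% of all genes changed in ΔC and 6.77% in wild-type cells). Beside the Ifitm cluster, Pgghg, B4galnt4 and Pkp3 did not pass in either response. B4galnt4, a glycosyltransferase gene, was higher in ΔC with poly(I:C) (1.40 ± 0.31, adjusted p = 0.0108) and without it (1.14 ± 0.31, 0.0264), as were 11.9% and 10.9% of all genes.

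Across the 12 arrays, which share the treatment and the genotypes, Rsad2 and Cmpk2 correlated at r = 0.981, and Ifitm3 and Bst2 at r = 0.988. Such values were not particular to these pairs. Among Rsad2, Cmpk2, Ch25h, Ifitm3 and Bst2 the lowest correlation was that of Ifitm3 and Ch25h, at r = 0.9235. The genes most like Rsad2 were Usp18 (r = 0.997), Isg15 (0.996) and Oasl2 (0.993), and those most like Cmpk2 were Znfx1 (0.998), AW011738 (0.995) and Oasl2 (0.995). Ch25h was most like Tgtp2 (0.981), Dtx3l (0.976) and Tmem140 (0.975), Ifitm3 most like Ogfr (0.990), Mitd1 (0.988) and Bst2, and Bst2 most like Rnf31 (0.993), Ogfr (0.992) and Tnfsf10 (0.989). For the 3 genes with no called response on their brightest probe the closest genes were Idnk (0.930) for Samhd1, Gm6654 (0.912) for Ifitm1 and Gstp1 (0.904) for Ifitm2.

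Set beside the promoter windows shown above, the response element core did not part the genes by their response. Rsad2, Ifitm3 and Bst2, with a match, and Cmpk2 and Ch25h, without one in 300 bases, rose in wild-type cells. Ifitm2, with a match, did not pass the test. The same 200 bases of Samhd1 (chr2:157135067-157135266, minus strand), Ifitm1 (chr7:140967906-140968105, plus strand) and Ch25h (chr19:34475119-34475318, minus strand) hold no match to that motif.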

How the data were processed

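RNA of 12 fibroblast samples, 3 in each of 4 groups, was measured on Agilent single-colour arrays, with 200 ng of RNA amplified and labelled per sample, per the labels' protocols. Per the file headers, the software was Feature Extraction 10.7.3.1 and the probe design was of build mm9. The deposited scanner files hold the processed intensity of each spot, background-subtracted and spatially detrended by the authors' scanner software, and flag other values such as saturation, outliers and whether a spot is well above background. A second table, deposited by the authors, gives log2 values with a median of 5.28 in every column. The submitters' processing notes name limma and no version. Of its 12 columns, 11 correlated best with their own arrays, and the ΔC poly(I:C) 1 column did not (r = -0.06), so that table served as an alternative only.

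From the scanner files, log2 intensity was taken, spots of a probe were averaged without control and outlier spots (91 to 163 per array), and the 75th percentile of each array (an intensity of 647 to 946) was subtracted. Through RefSeq accessions 27235 probes were named and 28446 were not. A gene was tested, by its brightest probe, when all 3 arrays of 1 or more groups were well above background. The 5 comparisons were fitted over all 12 arrays with limma 3.58.1 in R 4.3.3, two-sided, Benjamini-Hochberg over 15445 genes. The fit was tried on simulated data for the wild-type response only. Their noise was independent, without the replicate, slide or scan-day structure of these arrays. The number of arrays limits the precision. For a gene at background on every array of a group, the fold is a bound against each array's lowest signal well above background. Promoter windows came from RefSeq.

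Replicate numbers were checked for pairing: deviations from group means correlated at 0.115 to 0.651 in all 12 same-number pairs, and the series text names separate experiments, so fits with the replicate block are given where they change a call. Alternatives covered background correction, scaling, the dim-probe filter, the probe of a gene, the samples fitted, each array left out, all arrays numbered 3 left out, blocks for replicate, slide and scan day, a trended robust prior, array weights and the authors' table. The members and gene lists were chosen with earlier results of these data known. A gene of the interferon signalling list is not reported here and was left out of its counts. Named genes are the 8 members, Ppp1r15a, Ifnb1, the gene of each list that rose most and the gene that fell most among calls in a comparison, the 3 genes most like each member, and the 3 neighbours on each side. Other list genes and markers named beside a small count were chosen after their values were seen.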

Additional observations from a re-analysis of the deposited data

How the results depend on the processing

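Of the 8 genes, 5 were called in wild-type cells with poly(I:C), 2 in ΔC cells with poly(I:C), 1 between untreated genotypes, 4 between treated genotypes and 0 for the difference of responses. Leaving out 1 array at a time gave 5 to 6, 1 to 3, 0 to 2, 2 to 6 and 0 to 2. In the wild-type response the count was 3 with the slide as a block. In the ΔC response it was 1 with normexp, median scaling, quantile normalization, no filter, the slide or scan day as a block, or the authors' table without its mismatched column, 0 with all columns of that table, and 5 without the 4 arrays numbered 3 or with array weights. Between untreated genotypes it was 0 with normexp, the slide or scan day as a block or all columns of the authors' table, 2 with only the groups compared, without the arrays numbered 3 or with array weights, and 3 with the replicate block. Between treated genotypes it was 2 with only the groups compared or with all columns of the authors' table, 3 when blocking on slide or scan day, 5 with normexp, the replicate block or a trended robust prior, and 6 without the arrays numbered 3 or with array weights. For the difference it was 1 with normexp, 3 with the replicate block, and 6 without the arrays numbered 3 or with array weights. Counts over all genes moved too. With array weights 1256 genes rose and 1414 fell in the ΔC response (281 and 3 in the main fit). Then 3545 were higher and 3863 lower in untreated ΔC cells (1686 and 1581), and 3786 and 3145 in treated ΔC cells (1837 and 1396). For the difference 196 lay above 0 and 498 below (1 and 2). Without the arrays numbered 3 these counts were 1007 and 1022, 2752 and 2873, 3212 and 2614, and 94 and 360. Beside the calls given with the results, the replicate block changed no other call.

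Of 1032 member values under alternatives, 27 changed sign, and 0 of these had an adjusted p under 0.05. Among untreated cells (ΔC over wild type) Rsad2 was -0.034 and Ch25h -0.16 with normexp. Ch25h was -0.19 without the arrays numbered 3, -0.35 with array weights, and -0.26 to 0.52 without 1 array. Ifitm3 was -0.14 and Bst2 -0.12 with the slide as a block, Bst2 was -0.0031 with array weights, and without 1 array Ifitm3 was -0.055 to 0.047 and Bst2 -0.061 to 0.12. Ifitm2 was 0.0123 with quantile normalization and 0.0124 in both uses of the authors' table. Ifitm2 between treated genotypes was 0.0031 with quantile normalization. Its difference of responses was -0.16 with median scaling, -0.0092 with quantile normalization, -0.065 without the arrays numbered 3, -0.087 with array weights, -0.16 and -0.041 in the authors' table with and without its mismatched column, and -0.028 to 0.14 without 1 array. The wild-type response of Ifitm1 was -0.32 to 0.24 without 1 array. The cause of these changes was not tested.

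Median scaling moved the median of all genes to -0.19 in the ΔC response, -0.14 between treated genotypes and -0.14 for the difference, against -0.05, 0.01 and 0.07. Under it 583 genes rose and 14 fell in the wild-type response (809 and 237 otherwise), 1264 were higher and 696 lower in untreated ΔC cells (1686 and 1581), and 999 were higher and 1179 lower in treated ΔC cells (1837 and 1396). Untreated wild-type readings of Rsad2 and of the second Cmpk2 probe lay at background on every array. Those of the brighter Cmpk2 probe and of Ch25h lay there on array 3. This limits the size of their changes.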
